A study of Mus musculus with 4 samples.

Results

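The comparison described here set PJ34-treated *Trp53*-/- neural stem/progenitor cells (NSPCs) against PJ34-treated wild-type NSPCs. Its members were the 4 PJ34 channels, 2 per genotype, of 8 channels on 4 arrays, and the genes measured in them. NSPCs are cultured cells that self-renew as floating neurospheres and can give rise to neurons, astrocytes and oligodendrocytes. They came from Slc:ICR mouse embryos at embryonic day 13.5 in both genotypes, and were grown with EGF and FGF-basic and passaged before use. On every array the RNA of NSPCs treated with 20 μM PJ34, an inhibitor of poly(ADP-ribose) polymerases, carried Cy5, and that of untreated NSPCs of the same genotype carried Cy3. The mutant cells descend from *Trp53*-heterozygous mice of the RIKEN BioResource Center, and both genotypes carry the same strain label. Since every array had its own RNA preparation, n = 2 arrays per genotype, and where the preparations shared embryos or a culture the *p*-values cover technical spread alone. The deleted part of the *Trp53* allele, the number and sex of the embryos behind a culture and the hours with PJ34 before the RNA was taken are not given in the sources used here. Both genotypes are read in the same dye here, so a dye bias that is equal on all arrays cancels in the difference.

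*Trp53* codes for p53, a transcription factor that is kept at a low level by the ubiquitin ligase Mdm2 and is stabilized after DNA damage. Active p53 binds pairs of half-sites in DNA and raises the transcription of genes for cell cycle arrest, apoptosis, DNA repair and its own feedback. In neural progenitors, p53 is known to limit self-renewal and to mediate death after genotoxic stress. Comparing the genotypes under PJ34 asks which transcript levels differ between cells with and without p53 when both receive the inhibitor.

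A probe was kept where both PJ34 samples of 1 genotype or the other gave a signal well above background. With 1 probe per gene, this left 20092 genes. Levels are background-corrected, quantile-normalized log2 intensities of the PJ34 channel, and a difference is the *Trp53*-/- mean minus the wild-type mean with its standard error, so -1 is 2-fold lower without p53. Between 26081 and 27157 of 55681 probes were well above background per PJ34 channel and no spot was saturated. Across genes, the PJ34 channels had a correlation of 0.981 between the wild-type samples and of 0.994 between the *Trp53*-/- samples, and of 0.968 to 0.978 between the genotypes. The PJ34 channels of the *Trp53*-/- replicates differed in Y-linked genes. *Eif2s3y* had levels of 9.74 and 9.74 in the wild-type and 5.82 and 10.78 in the *Trp53*-/- samples, and *Ddx3y* 8.80 and 8.61 in the wild-type and 5.85 and 9.54 in the *Trp53*-/- samples. In the untreated channels *Eif2s3y* had 8.53 and 8.01 in the untreated wild-type and 6.003 and 5.93 in the untreated *Trp53*-/- samples, and *Ddx3y* 7.86 and 7.65 in the untreated wild-type and 6.03 and 5.87 in the untreated *Trp53*-/- samples. Of the 4 *Trp53*-/- channels, the PJ34 channel of replicate 2 alone was well above background in both genes, so it stood apart from the untreated channel of its own array, while all wild-type channels were well above it. Under PJ34, *Xist*, expressed from the inactive X chromosome, had 7.47 and 7.33 in the wild-type and 8.21 and 6.31 in the *Trp53*-/- samples, and both untreated *Trp53*-/- samples were near 7.25. None of the 7 tested members of the sex-linked list, among them *Kdm6a* (0.56), *Kdm5c* (0.28), *Eif2s3x* (0.07) and *Ddx3x* (0.34), was called between the genotypes in limma, and 1 had an unadjusted *p* below 0.05. The part of this in the results was not tested, and counts without either *Trp53*-/- replicate are given beside them.

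*Trp53* itself was read from 1 probe (chr11:69404204-69404263 of mm9). Its levels were 8.53 and 8.58 in the wild-type and 7.58 and 8.02 in the *Trp53*-/- samples, a difference of -0.75 ± 0.21 (SE) with *q* = 0.0659 in limma. Both *Trp53*-/- samples lay below both wild-type samples, yet the probe stayed well above background on all 4 arrays and the gene was not called. Whether this probe lies inside the deleted part is not given in the sources used here, so its level does not check the labels.

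A gene was called where limma gave a *p* and a *q* (Storey's method) that were both below 0.05 and the genotypes were over 2-fold apart. Of the 20092 genes, 781 (3.89%) were called. Without p53, 509 genes (2.53%) were lower and 272 (1.35%) were higher. Of the called genes, 227 of the lower and 236 of the higher have a symbol in the RefSeq table. The PJ34 channel was well above background on all 4 arrays for 483 of the lower and 250 of the higher genes. The samples of the genotypes did not overlap for 11376 genes (56.6%). With Benjamini-Hochberg adjustment 61 genes were lower and 23 higher, and with the median of each array set equal 307 were lower and 1290 higher, so that the share of higher genes among those called was 80.8% in place of 34.8%. That scaling put the median difference of all genes at 0.295, against 0.02 here.

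Leaving out 1 of the *Trp53*-/- samples left a single sample of that genotype, assumed to vary like the others, and limma then called 0 genes in either direction. Without *Trp53*-/- replicate 1 the smallest *q* was 0.0558 and 2100 genes had an unadjusted *p* below 0.05, of which 922 were lower and 487 higher by more than 2-fold. Without *Trp53*-/- replicate 2 the smallest *q* was 0.0725 and 1415 genes had an unadjusted *p* below 0.05, with 557 lower and 325 higher by more than 2-fold. All 781 called genes kept their sign when any 1 sample was left out. They had been called on these same samples, so this is a description and not independent support. Of the 509 lower and 272 higher genes, 491 and 252 were still more than 2-fold apart without *Trp53*-/- replicate 1. Without wild-type replicate 1 there were 931 lower and 499 higher genes, and without wild-type replicate 2 there were 1084 and 611.

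Of the 24 gene lists examined, that of the p53 targets named by the study had the lowest median difference. Medians of the other p53 lists, by role, ran from -1.31 (arrest) to -0.01 (repair). The endothelial and mural (-0.90), MHC class I (-0.63) and microglia and blood cell (-0.49) lists lay within that range. All lists were chosen with earlier results of these data known. All 8 p53 targets that the study names were called lower, with differences from -4.93 to -2.18 and a median of -3.69, against 0.02 for all genes tested. The study chose these 8 genes on these arrays, so their direction is not independent evidence. Of 66 other p53 targets from a list, 62 were tested, 25 were called lower and 0 higher, with a median of -1.003 and 48 of the 62 below 0. At an unadjusted *p* below 0.05, 36 were below and 2 above 0. Over all genes the shares called were 2.53% lower and 1.35% higher. With Benjamini-Hochberg adjustment 8 of the 8 and 10 of the 62 were called, and limma's treat, a test against 2-fold, called 6 and 5. Without either *Trp53*-/- replicate, limma called 0 of both lists by *q*. Genes with an unadjusted *p* below 0.05 that were more than 2-fold lower numbered 8 and 31 without replicate 1, 8 and 30 without replicate 2, and 8 and 31 with all samples. Of the 25, 3 were not well above background in either *Trp53*-/- sample and passed the filter through wild-type alone.

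**Figure D1:**
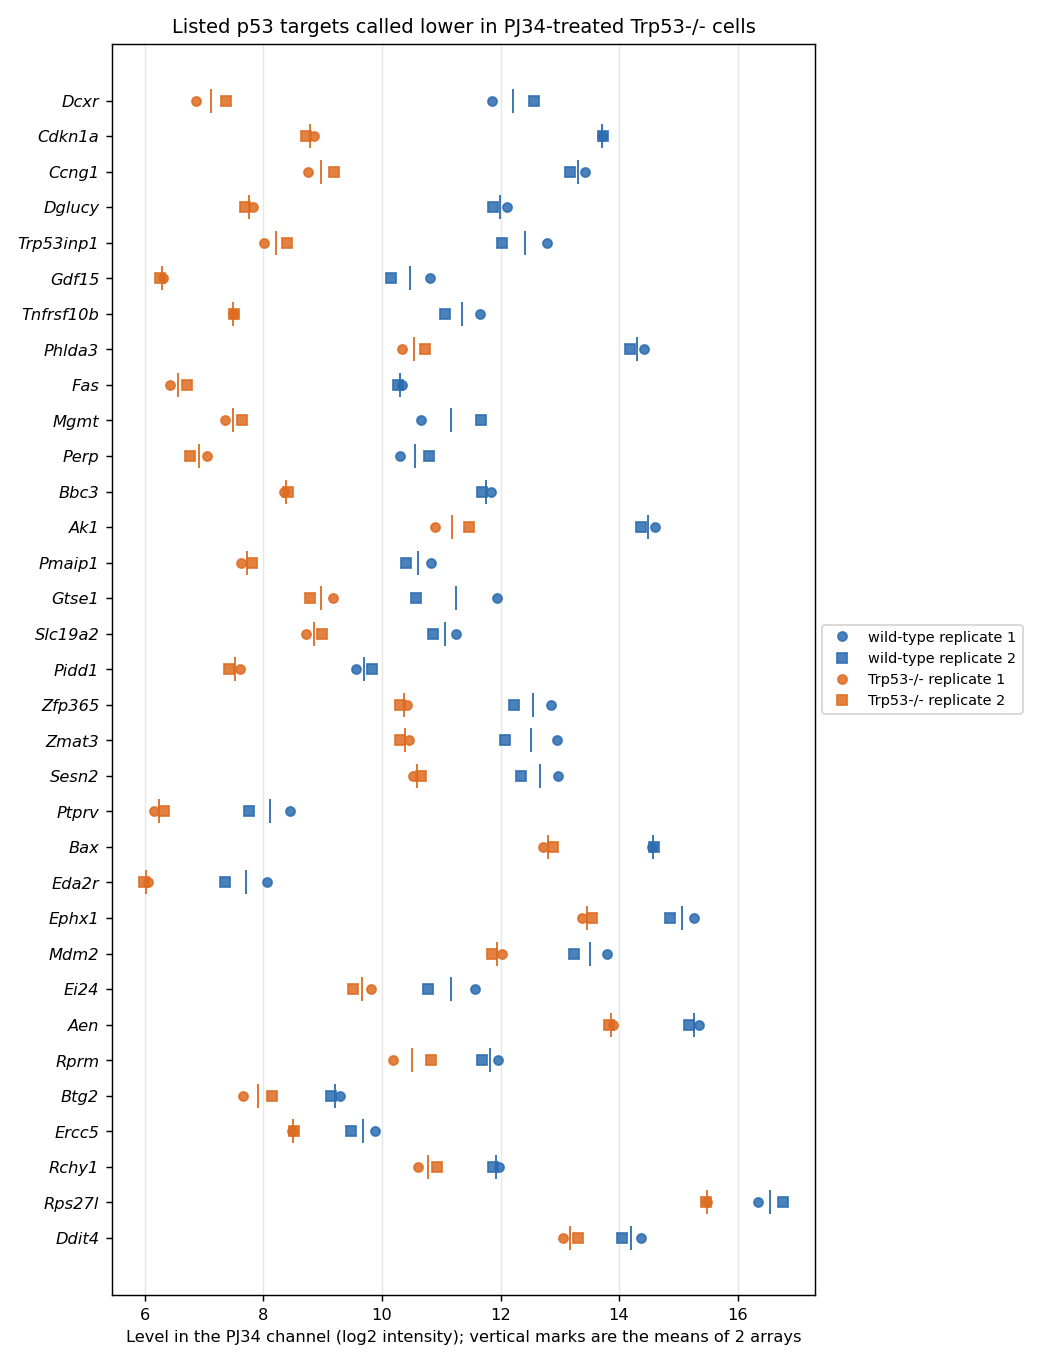
Levels of the 33 listed p53 targets called lower, one row per gene and ordered by the difference. The x axis is the log2 intensity in the PJ34 channel, points are the 4 samples by genotype and replicate, and vertical marks are the means of 2 arrays. For every gene both *Trp53*-/- samples lie below both wild-type samples, from *Dcxr* (-5.09) to *Ddit4* (-1.03), and for *Gdf15*, *Ptprv* and *Eda2r* the *Trp53*-/- points were not well above background. The genes were called lower on these same samples, so the lack of overlap is a description, and 56.6% of all genes tested had none.

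*Cdkn1a*, which codes for the cyclin-dependent kinase inhibitor p21 and halts the cycle before DNA synthesis, had levels of 13.71 and 13.72 in the wild-type and 8.86 and 8.72 in the *Trp53*-/- samples. The difference of -4.93 ± 0.17 (SE) was 30.4-fold, with *q* = 0.00243 in limma, from the probe at chr17:29237377-29237436 of mm9. The distance between the genotypes was far above that between replicates, although the smallest difference among its 3 kept probes was -0.73. *Ccng1*, the gene of cyclin G1, which takes part in the feedback on p53, had 13.42 and 13.18 in the wild-type and 8.75 and 9.20 in the *Trp53*-/- samples, a difference of -4.33 ± 0.23 with *q* = 0.00287 in limma (chr11:40562427-40562486). *Perp*, a membrane protein of p53-dependent apoptosis, had 10.31 and 10.79 in the wild-type and 7.05 and 6.76 in the *Trp53*-/- samples, a difference of -3.64 ± 0.24 with *q* = 0.00404 (chr10:18576697-18576756). Among the samples of both genes, the lowest wild-type level was more than 3 log2 units above the highest *Trp53*-/- level.

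Death receptor genes, and *Pidd1* of the same death domain family, were called lower as well. *Tnfrsf10b*, which codes for the TRAIL receptor DR5, had levels of 11.65 and 11.06 in the wild-type and 7.48 and 7.50 in the *Trp53*-/- samples, and the difference was -3.86 ± 0.24 with *q* = 0.00373 in limma. *Fas*, the receptor of Fas ligand, had 10.34 and 10.27 in the wild-type and 6.42 and 6.71 in the *Trp53*-/- samples and a difference of -3.74 ± 0.19 with *q* = 0.00287. *Pidd1*, the core of a caspase-2 activating complex, had 9.55 and 9.83 in the wild-type and 7.60 and 7.43 in the *Trp53*-/- samples and a smaller difference of -2.18 ± 0.19 with *q* = 0.0122. In none of these did the samples of the genotypes overlap, which also held for 56.6% of all genes tested.

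Of the 8, *Bbc3* and *Pmaip1* are BH3-only genes, whose products set off the mitochondrial pathway of apoptosis. *Bbc3*, the gene of Puma, had 11.84 and 11.69 in the wild-type and 8.34 and 8.41 in the *Trp53*-/- samples, a difference of -3.39 ± 0.17, 10.5-fold, with *q* = 0.00287 in limma. *Pmaip1*, the gene of Noxa, had 10.83 and 10.40 in the wild-type and 7.62 and 7.81 in the *Trp53*-/- samples, a difference of -2.90 ± 0.22, 7.46-fold. Among the other p53 targets of apoptosis, 4 of 11 tested were called lower and 0 higher, with a median of -1.17. They were *Bax* (-1.77), the pore-forming Bcl2 family member, *Aen* (-1.40), an apoptosis-enhancing nuclease, *Ei24* (-1.51) and the death receptor gene *Eda2r*, which was not well above background in *Trp53*-/- and at least 2.66-fold lower. With the 75th percentile scaling 7 of the 11 were called lower, and with cyclic loess 9. *Bax* stood at 14.55 and 14.59 in the wild-type and 12.71 and 12.88 in the *Trp53*-/- samples. *Apaf1* (-1.17), *Siva1* (-1.17) and *Trp53i11* (-1.35) did not reach *q* below 0.05, with *q* of 0.0566 and 0.0516 for the former pair and *Trp53i11* just above 0.05, and *Bcl2l11* had 0.20.

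Of the targets that act back on p53, 4 of 8 tested were called lower and 0 higher (median -0.95). *Mdm2*, which marks p53 for degradation, had levels of 13.80 and 13.23 in the wild-type and 12.02 and 11.85 in the *Trp53*-/- samples, and *Trp53inp1*, a cofactor that promotes p53-dependent death, had 12.79 and 12.03 in the wild-type and 8.005 and 8.40 in the *Trp53*-/- samples. Their differences were -1.58 ± 0.24 with *q* = 0.0304 and -4.21 ± 0.31 with *q* = 0.00666 in limma. *Zmat3* (-2.13), an RNA-binding protein gene, and *Rchy1* (-1.16), which codes for the ubiquitin ligase Pirh2, were the other two. *Mdm4* (-0.21), the partner of *Mdm2*, and the phosphatase gene *Ppm1d* (0.00) were not called.

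Among arrest genes, 8 of 13 tested were called lower and 0 higher (median -1.31). *Phlda3*, an inhibitor of the kinase Akt, had 14.41 and 14.18 in the wild-type and 10.34 and 10.73 in the *Trp53*-/- samples, a difference of -3.76 ± 0.22 with *q* = 0.00331 in limma. *Gtse1* (-2.28), *Sesn2* (-2.06), *Rprm* (-1.32), *Btg2* (-1.31) and *Ddit4* (-1.03) lay between 2-fold and 5-fold lower. Of these, *Sesn2* and *Ddit4* code for inhibitors of mTORC1 signalling. *Gadd45a* (-0.40), *Plk2* (-1.14) and *Sesn1* (0.17) did not pass the test. In *Gdf15* and *Ptprv*, the *Trp53*-/- channels were not well above background.

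In repair, 3 of 11 tested were called lower, with a median of -0.01. *Mgmt*, which removes alkyl groups from guanine, had 10.66 and 11.66 in the wild-type and 7.35 and 7.63 in the *Trp53*-/- samples, a difference of -3.67 ± 0.35 or 12.7-fold with *q* = 0.018 in limma. *Ercc5* (-1.18), a nuclease of nucleotide excision repair, and *Rps27l* (-1.08), a ribosomal protein paralog, followed. For *Ercc5* the other kept probe had -0.29. *Xpc* (0.50), *Ddb2* (0.35) and *Polh* (0.52) were not called and their values were above 0.

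Of the targets in metabolism and other roles, 6 of 19 tested were called lower (median -0.35). *Dcxr*, a reductase of dicarbonyls and L-xylulose, had 11.86 and 12.56 in the wild-type and 6.87 and 7.37 in the *Trp53*-/- samples. Its difference of -5.09 ± 0.30, 34.1-fold with *q* = 0.00335 in limma, was the lowest of the 20092 genes (chr11:120587276-120587416 of mm9). *Dglucy*, the mitochondrial D-glutamate cyclase gene, had 12.11 and 11.87 in the wild-type and 7.82 and 7.70 in the *Trp53*-/- samples with a difference of -4.23 ± 0.18, while its other kept probe had -1.69. *Ak1* (-3.30), an adenylate kinase gene, *Slc19a2* (-2.20), a thiamine transporter gene, *Zfp365* (-2.18) and the epoxide hydrolase gene *Ephx1* (-1.60) were also lower. *Tigar* (0.23), *Gls2* (0.39) and *Fdxr* (-0.26) were not called.

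Besides these, *Psrc1* and *Svop* were among the 12 largest differences in this direction. *Psrc1*, a spindle protein gene, had 11.27 and 11.64 in the wild-type and 7.96 and 7.59 in the *Trp53*-/- samples, a difference of -3.68 ± 0.23 with *q* = 0.00373 in limma. *Svop*, which codes for a synaptic vesicle transporter-like protein, had 10.62 and 10.74 in the wild-type and 6.96 and 7.19 in the *Trp53*-/- samples, a difference of -3.61 ± 0.18 with *q* = 0.00287. For genes that were well above background in both wild-type samples and in neither *Trp53*-/- sample, the fold is a lower limit, taken against the higher of each array's lowest well-measured signal and the probe's own signal. *Gdf15*, a stress-induced cytokine gene, was at least 18.1-fold lower (10.81 and 10.15 in the wild-type and 6.31 and 6.25 in the *Trp53*-/- samples), and *Alox5*, the gene of 5-lipoxygenase, at least 16.8-fold lower (10.60 and 10.14 in the wild-type and 6.28 and 6.13 in the *Trp53*-/- samples). The limits of *1700007K13Rik*, *Pqlc3* and *Ptprv* were 10.5-fold, 10.2-fold and 3.45-fold. These limits hold for the probe read, and the other kept probe had a difference of -1.12 for *Pqlc3* and -0.81 for *Ptprv*. Of the 509 lower genes, 23 had both *Trp53*-/- samples not well above background, and they passed the filter through wild-type alone.

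The RefSeq promoter windows (GRCm38.p6, 250 bases before to 50 after each start) were searched on the coding strand for a full p53 site, that is 2 p53 half-sites at most 13 bases apart with at most 1 mismatch and intact C and G cores. The site reads the same on both strands. A window was found for 10757 of the genes tested. The site was in 7 of 159 lower genes (4.40%), in 3 of 184 higher genes (1.63%) and in 56 of 10414 genes that were not called (0.538%), and in 0.627% of all 32851 windows. Of the 7, 4 are listed p53 targets, and among the lower genes that are not, 3 of 132 (2.27%) held the site. Of 59 listed p53 targets with a window, 4 (6.78%) held one. A match describes the letters of the window and is not evidence of binding. The windows of these 4 p53 targets, of the lower gene *Slc2a9* and of the higher gene *Sptbn4* are shown in part, so that sites on both sides of the comparison can be read, with the half-sites in capitals.
Cdkn1a: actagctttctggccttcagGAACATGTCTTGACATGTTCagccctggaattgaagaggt
Ccng1: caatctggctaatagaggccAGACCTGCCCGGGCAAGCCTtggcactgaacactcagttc
Rps27l: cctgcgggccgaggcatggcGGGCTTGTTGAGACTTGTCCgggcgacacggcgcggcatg
Gtse1: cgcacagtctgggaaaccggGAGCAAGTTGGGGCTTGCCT
Slc2a9: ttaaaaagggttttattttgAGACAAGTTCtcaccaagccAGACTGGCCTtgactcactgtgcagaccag
Sptbn4: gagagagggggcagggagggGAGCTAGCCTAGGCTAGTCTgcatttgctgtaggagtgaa
They lie at chr17:29090908-29090967, plus strand (*Cdkn1a*, 1 of its annotated starts), chr11:40755442-40755501, minus strand (*Ccng1*), chr9:66946276-66946335, plus strand (*Rps27l*), chr15:85859925-85859964, plus strand (*Gtse1*), chr5:38483510-38483579, minus strand (*Slc2a9*) and chr7:27396214-27396273, minus strand (*Sptbn4*). In *Cdkn1a* and *Ccng1*, whose levels lay more than 4 log2 units apart, the half-sites adjoin, as they do in *Rps27l*, which differed by -1.08 with levels of 16.34 and 16.77 in the wild-type and 15.49 and 15.47 in the *Trp53*-/- samples. *Slc2a9*, a urate and sugar transporter gene, differed by -1.53 ± 0.23, and *Sptbn4*, the gene of a spectrin chain, by 1.03 ± 0.18. *Slc2a9* and *Sptbn4* were picked for their sites after their values were seen.

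The cell cycle lists lay near the median of all genes. Of the S phase genes, 33 were tested and 0 were called by limma in either direction, with a median of 0.14 and values from -0.42 (*Tyms*) to 0.55 (*Pole*), and 2 had an unadjusted *p* below 0.05. Of the G2 and M phase genes, 1 of 34 was called, *Ckap2*, a spindle-associated gene, with 12.28 and 11.49 in the wild-type and 10.01 and 9.60 in the *Trp53*-/- samples and a difference of -2.08 ± 0.31 (*q* = 0.0304 in limma). The median was 0.16, and 2.53% of all genes tested were called lower. With the medians of the arrays set equal, 1 S phase and 4 G2 and M phase genes were called higher, with the all-gene median at 0.295.

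The drug's targets and the damage kinases were not called. *Parp1* and *Parp2*, the enzymes that PJ34 inhibits, had differences of 0.36 ± 0.22 (*q* = 0.195) and -0.30 ± 0.23 (*q* = 0.243) in limma. Of 22 tested genes of the PARP family and of NAD metabolism 0 were called and 3 had an unadjusted *p* below 0.05, and at *q* below 0.05 without a fold limit *Parp9* (-0.78) alone passed. Of 20 tested genes of DNA damage signalling 0 were called and 1 had an unadjusted *p* below 0.05, with 0.12 ± 0.37 for *Atm* and 0.21 ± 0.17 for *Atr*, the kinases that respond to breaks and to stalled forks, and at *q* below 0.05 *Mre11a* (0.81) passed. Of 22 caspase and Bcl2 family genes 0 were called and 5 had an unadjusted *p* below 0.05. *Casp8* and *Casp9* had 0.18 ± 0.21 and 0.26 ± 0.20, and *Hrk*, a BH3-only gene, passed *q* without the fold limit at 0.98. These counts are all from limma, and with the medians set equal 1, 1 and 2 genes of the 3 lists were called higher.

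Calls in the stress, sterol, MHC class I and interferon lists are given here beside a share of 3.89% over all genes tested. Of 24 integrated stress response genes, *Sesn2* was called lower and is also a p53 target, with a median of 0.29 for the list, *Atf4* at 0.29, *Ddit3* at 0.56 and *Trib3* at 0.81. At an unadjusted *p* below 0.05 in limma, 5 of the list were higher and 1 lower. Of 24 cholesterol synthesis genes 0 were called in limma and 2 had an unadjusted *p* below 0.05 (median 0.09). Of 15 tested MHC class I and peptide-loading genes, 2 were called lower and 0 higher (median -0.63). With an unadjusted *p* below 0.05 in limma, 9 were lower and 0 higher, against 2523 and 2047 of all 20092 genes. *H2-D1* had 10.60 and 10.79 in the wild-type and 7.03 and 8.89 in the *Trp53*-/- samples, with *Trp53*-/- replicate 1 far below replicate 2, and a difference of -2.74 ± 0.58 (*q* = 0.0436). *Tap1*, a peptide transporter gene, had 7.80 and 7.92 in the wild-type and 6.16 and 6.11 in the *Trp53*-/- samples, with both *Trp53*-/- samples not well above background, and was at least 2.94-fold lower. The MHC class I genes share long stretches of sequence, so their probes may read more than 1 gene. Of 16 tested interferon-stimulated genes, *Ifi203* was called higher, and 14 of the 30 on the array were not measured well enough to be tested. Among the 16, 6 were higher and 1 lower at an unadjusted *p* below 0.05 in limma.

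**Figure D2:**
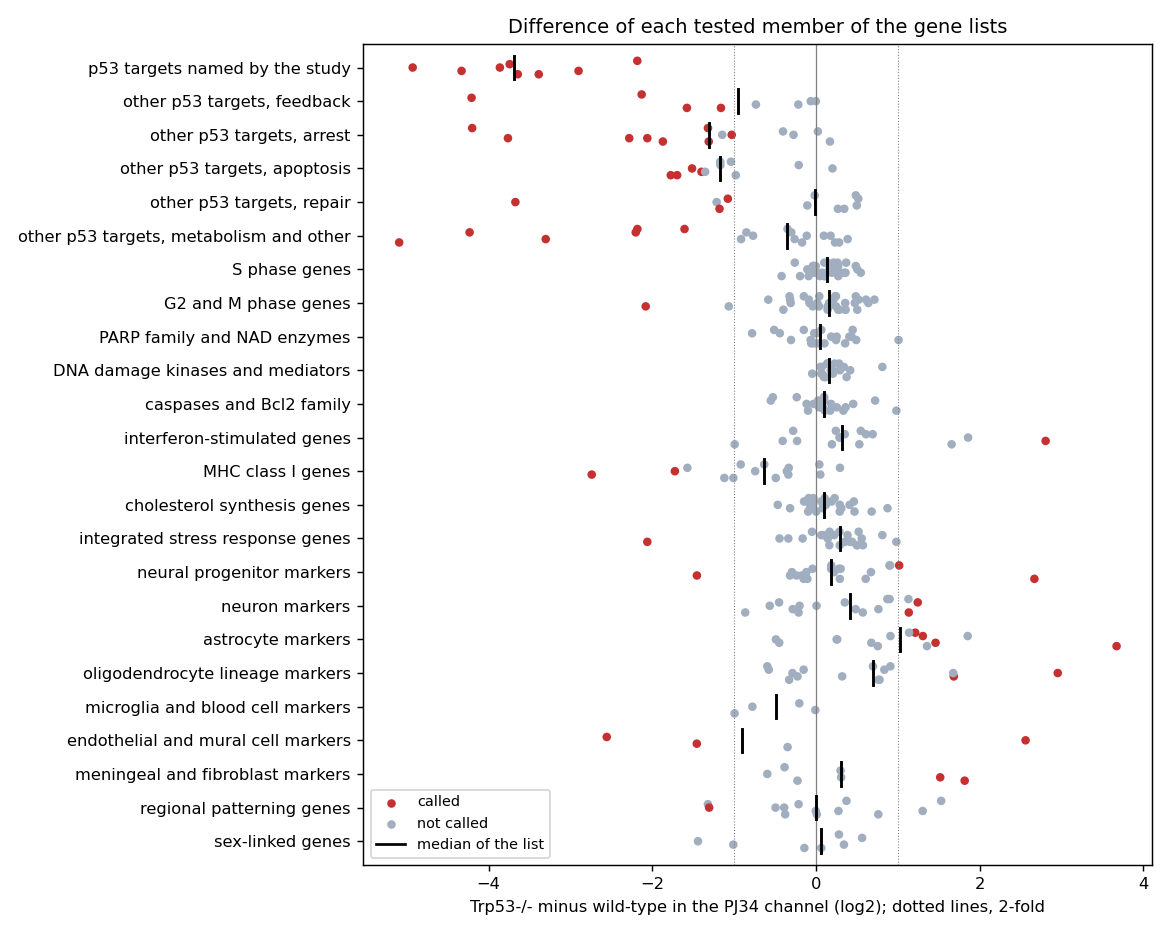
Difference between PJ34-treated *Trp53*-/- and wild-type NSPCs for each tested member of 24 gene lists. The x axis is the log2 difference, points are genes, red where called, and black lines are list medians. The study's p53 targets have the lowest median (-3.69) and the astrocyte markers the highest (1.02), while the S phase list is narrow around 0.14.

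Among genes higher without p53, the *Cdkn2a* locus had the largest difference of those well above background on all 4 arrays. *Cdkn2a* codes for p16Ink4a and p19Arf, of which the latter protects p53 by binding Mdm2. Its levels were 11.30 and 11.64 in the wild-type and 14.91 and 15.13 in the *Trp53*-/- samples, and the difference of 3.55 ± 0.20 was 11.7-fold with *q* = 0.00331 in limma (chr4:88920405-88920464 of mm9). Both of its kept probes gave at least 3.35. *Cdkn2b*, its neighbour on chromosome 4, which codes for p15Ink4b and was added after its values were seen, had 10.74 and 10.77 in the wild-type and 12.31 and 12.59 in the *Trp53*-/- samples, a difference of 1.70 ± 0.19 with *q* = 0.0224 (chr4:88952276-88952335). *Fgfr3*, a receptor of FGFs, had 9.91 and 10.17 in the wild-type and 12.79 and 12.63 in the *Trp53*-/- samples, a difference of 2.67 ± 0.19 with *q* = 0.00652. The replicates of these 3 genes differed by at most 0.33 on the log2 scale.

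Other genes among the largest differences follow. *Flt1*, a VEGF receptor gene, had 6.49 and 6.89 in the wild-type and 9.28 and 9.23 in the *Trp53*-/- samples (2.56 ± 0.20, *q* = 0.00932 in limma), and *Cd93*, a lectin-like receptor gene known from endothelial and myeloid cells, had 9.79 and 10.03 in the wild-type and 12.54 and 12.42 in the *Trp53*-/- samples (2.57 ± 0.19, *q* = 0.00666). *Cd82*, a tetraspanin gene, had 7.46 and 7.97 in the wild-type and 10.09 and 10.45 in the *Trp53*-/- samples, and *Pdpn*, the gene of podoplanin, 8.28 and 8.996 in the wild-type and 10.66 and 11.34 in the *Trp53*-/- samples. The smallest difference among their kept probes was 0.26 for *Cd82* and 0.60 for *Pdpn*. *Mgll*, the monoacylglycerol lipase gene, had 8.98 and 9.38 in the wild-type and 11.67 and 11.57 in the *Trp53*-/- samples, with all 3 of its kept probes at 2.09 or more.

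In several higher genes the replicates were far apart. *Pdlim4*, an actin-linked PDZ and LIM domain gene, had 10.77 and 12.71 in the wild-type and 14.59 and 15.01 in the *Trp53*-/- samples and a difference of 3.06 ± 0.61 with *q* = 0.0414 in limma. *H19*, an imprinted long noncoding RNA, had 7.07 and 8.44 in the wild-type and 9.81 and 11.31 in the *Trp53*-/- samples and 2.80 ± 0.63 with *q* = 0.0478. *Ifi203*, of the interferon-inducible p200 family, had 8.29 and 10.29 in the wild-type and 11.89 and 12.30 in the *Trp53*-/- samples and 2.81 ± 0.63 with *q* = 0.0481, and the smallest difference among its 4 kept probes was 0.59. In each of these the wild-type samples differed by more than 1 log2 unit, wild-type replicate 2 being the higher. They did not overlap with *Trp53*-/-, which the rule that picked these genes required. *Gm5106* had 9.61 and 10.87 in the wild-type and 13.06 and 12.45 in the *Trp53*-/- samples (2.52 ± 0.44).

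Genes not well above background in either wild-type sample have only a lower limit. *Wnt10a*, a Wnt ligand gene, was at least 6.46-fold higher without p53, with 5.97 and 6.07 in the wild-type and 8.95 and 9.16 in the *Trp53*-/- samples. The limits of *Samd4*, *Itih3*, *Fa2h*, a fatty acid hydroxylase gene of myelin, and *Npy1r*, a neuropeptide Y receptor gene, were 2.4-fold, 2.23-fold, 2.03-fold and 2.02-fold. Of the 272 higher genes, 8 had both wild-type samples not well above background, and they passed the filter through *Trp53*-/- alone.

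All 21 neural progenitor markers with a probe were well above background on all 4 arrays, as the label of the cells says. *Nes*, the gene of nestin, had 13.65 and 13.93 in the wild-type and 14.23 and 14.57 in the *Trp53*-/- samples, a difference of 0.61 ± 0.21 that was not called (*q* = 0.0921 in limma), but was with the medians set equal, at 1.04 with the all-gene median at 0.295. Of these markers 2 were higher, among them *Fgfr3*, and 1 was lower. It was *Msi1*, an RNA-binding protein gene (9.69 and 9.80 in the wild-type and 8.39 and 8.20 in the *Trp53*-/- samples, -1.45 ± 0.18), while the other kept probe of *Msi1* had 0.28. The median of the list was 0.19, with *Sox2* at -0.12, *Vim* at -0.10 and *Pax6* at 0.90. Among all genes tested, 1.35% were called higher and 2.53% lower.

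Astrocyte markers were higher in *Trp53*-/- NSPCs in 4 of 14 tested and lower in 0, with a median of 1.02 and 12 of the 14 above 0. Over all genes tested 1.35% were called higher. *Gfap*, the intermediate filament gene of astrocytes, had 6.25 and 7.36 in the wild-type and 9.67 and 11.29 in the *Trp53*-/- samples, a difference of 3.67 ± 0.61 with *q* = 0.0318 in limma. It was well above background in 1 of the 2 wild-type samples, its replicates were more than 1 log2 unit apart in both genotypes, and the smallest difference of its 3 kept probes was 0.89. *Clu* (12.65 and 13.07 in the wild-type and 14.13 and 14.51 in the *Trp53*-/- samples), *S100b* (8.30 and 8.48 in the wild-type and 9.42 and 9.97 in the *Trp53*-/- samples) and *Slc1a2*, a glutamate transporter gene (8.50 and 8.21 in the wild-type and 9.55 and 9.59 in the *Trp53*-/- samples), had tighter replicates and differences of 1.46 ± 0.24, 1.31 ± 0.24 and 1.21 ± 0.19. *Aldh1l1* (-0.49), *Gja1* (-0.45) and *Aqp4* (0.68) were not called, and *Gjb6* was in no sample well above background. The summed linear level of the 15 markers with a probe was 91759 and 87358 in wild-type and 170422 and 185157 in *Trp53*-/-. Without *Aldoc*, the brightest of them, it was 62928 and 48407 against 118410 and 123546. *Aldoc*, *Sparcl1* and *Apoe*, the brightest in *Trp53*-/-, weigh most in this sum and were not called (*q* = 0.0711, 0.127 and 0.0686 in limma). More astrocyte-like cells in a culture and more of these RNAs per cell cannot be told apart in bulk RNA. By *q*, 0 of these markers were called without either *Trp53*-/- sample or with Benjamini-Hochberg adjustment, against 5 with an unadjusted *p* below 0.05 and more than 2-fold without *Trp53*-/- replicate 1 and 5 without replicate 2, and 7 and 9 were called with the 75th percentile and the median scaling.

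Oligodendrocyte lineage markers were higher in 2 of 15 tested and lower in 0 (median 0.70), against 1.35% and 2.53% of all genes tested. Among the higher ones *Mbp*, the myelin basic protein gene, had 6.83 and 7.54 in the wild-type and 8.85 and 8.89 in the *Trp53*-/- samples and 1.69 ± 0.27 (*q* = 0.031 in limma), with its other kept probe at -0.06. *Cnp* had 10.65 and 11.21 in the wild-type and 11.43 and 11.99 in the *Trp53*-/- samples and 0.78 ± 0.29 (*q* = 0.102), and was called without wild-type replicate 2, at 1.06. *Pdgfra* (-0.59), *Cspg4* (-0.33) and *Olig2* (-0.15), which mark precursors, and *Sox10* (0.32) were not called. Of the list, 3 were called higher with the 75th percentile scaling, 4 with an offset of 16, 5 with the medians set equal, 6 without wild-type replicate 2, 1 with Benjamini-Hochberg adjustment and 0 by *q* without either *Trp53*-/- sample. The summed level of the 16 markers was 81849 and 61508 in wild-type and 64091 and 71552 in *Trp53*-/-, so the groups overlapped. Without *Olig1*, the brightest of them, it was 19088 and 18029 in wild-type against 24028 and 25710 in *Trp53*-/-, without overlap.

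Of 16 tested neuron markers, *Rbfox3* (7.40 and 7.41 in the wild-type and 8.69 and 8.60 in the *Trp53*-/- samples, 1.25 ± 0.17) and *Elavl3* (8.84 and 9.14 in the wild-type and 9.91 and 10.34 in the *Trp53*-/- samples, 1.14 ± 0.23) were higher and 0 lower, with a median of 0.42. With the 75th percentile scaling 4 were higher, with the medians set equal 5 and with Benjamini-Hochberg adjustment 0. Among all genes tested, 1.35% were called higher and 2.53% lower. The smallest difference among the 3 kept probes of *Rbfox3* was 0.43. *Tubb3* had 9.28 and 9.20 in the wild-type and 9.63 and 10.001 in the *Trp53*-/- samples, a difference of 0.57 ± 0.20 (*q* = 0.0946 in limma), and *Dcx* 0.76. *Neurod6*, *Tbr1*, *Gad1*, *Gad2* and *Slc17a6*, which mark mature classes of neurons, were in no sample well above background. Of 16 microglia and blood cell markers 9 were likewise not well above it in any sample, among them *Ptprc*, *Aif1* and *Cx3cr1*, and 0 of the 4 tested were called in limma, 2 with an unadjusted *p* below 0.05. Their summed level was 10777 and 12371 in wild-type and 7563 and 6514 in *Trp53*-/-, and without *Itgam*, the brightest of them, 2763 and 3381 against 2142 and 1979.

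Endothelial and mural markers were split, with 1 higher and 2 lower of 4 tested. For this and the following lists, the shares over all genes tested were 1.35% higher and 2.53% lower. *Flt1* was higher, while *Kdr*, another VEGF receptor gene (13.57 and 13.43 in the wild-type and 12.03 and 12.06 in the *Trp53*-/- samples, -1.45 ± 0.17), and *Acta2*, smooth muscle actin (10.41 and 12.14 in the wild-type and 8.66 and 8.77 in the *Trp53*-/- samples, -2.56 ± 0.54), were lower. The other kept probe of *Kdr* had 0.63. *Cdh5*, *Tek*, *Cldn5*, *Pdgfrb* and *Rgs5* were not well above background on any array, while *Pecam1* (-0.35, not called) was on all 4. The summed level of the 13 markers was 14384 and 16410 in wild-type and 5905 and 6055 in *Trp53*-/-. The *Kdr* probe carried most of this sum, and without it the sum was 2196 and 5393 against 1734 and 1768. Of 7 tested meningeal and fibroblast markers, *Fn1*, fibronectin (10.49 and 9.74 in the wild-type and 12.11 and 11.75 in the *Trp53*-/- samples, 1.82 ± 0.30), and *Thy1* (7.67 and 8.24 in the wild-type and 9.44 and 9.51 in the *Trp53*-/- samples, 1.52 ± 0.24) were higher. *Col1a1*, *Col3a1*, *Dcn* and *Lum* were not well above background on any array, while *Col1a2* (-0.22) and *Col5a1* (0.31) were on all 4 and were not called. The summed level of the 13 markers was 4345 and 3844 in wild-type and 7526 and 6698 in *Trp53*-/-, and without *Fn1* 2911 and 2988 against 3094 and 3249. The part of other cell types in the differences was not tested. Of 13 tested regional patterning genes, *Zic1* (11.55 and 11.71 in the wild-type and 10.11 and 10.54 in the *Trp53*-/- samples, -1.30 ± 0.22) was lower, and *Sp8* had -1.32 and *Six3* 1.53. For *Zic1* the other kept probe had -0.17.

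**Figure D3:**
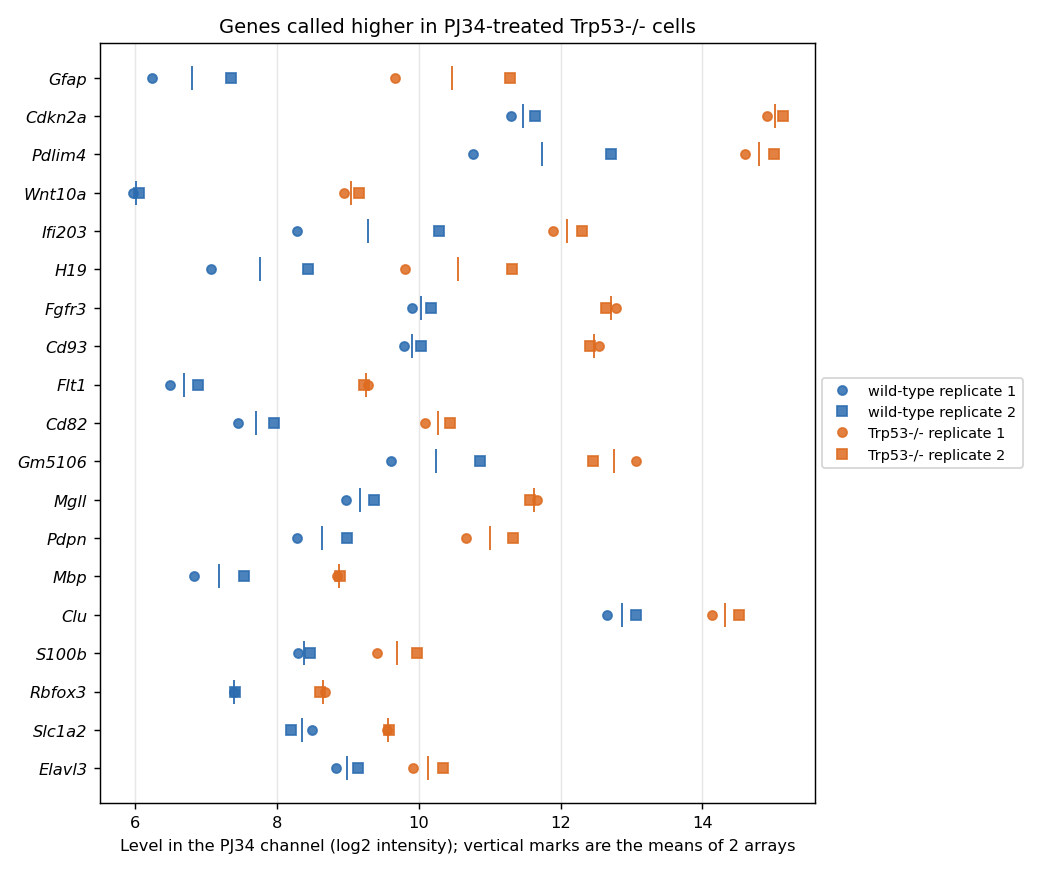
Levels of 19 genes called higher without p53, one row per gene and ordered by the difference. The x axis is the log2 intensity in the PJ34 channel, points are the 4 samples by genotype and replicate, and vertical marks are the means of 2 arrays. *Cdkn2a*, *Cd93* and *Fgfr3* have close replicates, while *Pdlim4*, *Ifi203*, *H19* and *Gfap* have replicates more than 1 log2 unit apart in at least 1 genotype. The wild-type points of *Wnt10a* were not well above background.

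The untreated channels of the same arrays give the difference between the genotypes without PJ34. Of the 509 lower genes, 502 were also below 0 in untreated cells, with a median of -1.03 against -1.30 under PJ34, and all 272 higher genes were also above 0, with a median of 1.18 against 1.29. The genes were picked by their PJ34 values, so these medians are not on equal terms. Both dyes are read from the same spots, with a within-spot correlation of 0.771 in the separate-channel fit. The shared sign is thus a description and not independent support. The difference of the PJ34 responses, computed from the ratios of both dyes within each array, tests whether the genotypes differed to the same extent with and without PJ34. It was called for 98 of the 20092 genes (0.488%). Among the 509 lower genes it was called for 42, all with a lower response in *Trp53*-/-, and among the 272 higher genes for 3, also lower. On the *Trp53*-/- replicate 2 array the dyes differed in Y-linked signal, with *Eif2s3y* at 10.78 under PJ34 and 5.93 untreated, and in *H2-D1*, at 8.89 and 6.46. Without that array the response difference was called for 98 genes, among them 44 of the 509, and without *Trp53*-/- replicate 1 for 166, among them 44 of the 509. The PJ34 channel enters both tests, so the overlap is a description.

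Of the 8 p53 targets named by the study, 7 had a called response difference, and the median untreated difference was -1.43 against -3.69 under PJ34. The study chose these 8 for a rise of more than 2-fold under PJ34 in wild-type cells on these arrays. The wild-type side of the response difference was thus fixed by that choice, and the count is not independent evidence. *Cdkn1a* differed by -2.62 in untreated and -4.93 in treated cells, *Perp* by -0.89 and -3.64, and *Fas* by -1.22 and -3.74. Their response differences were -2.14, -2.29 and -1.93, with *q* of 0.000557, 0.000197 and 0.0002 in limma. *Pidd1* had -1.02 and -2.18, and its response difference of -0.85 was below 2-fold.

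*Ddit4* differed by 0.60 in untreated cells and by -1.03 under PJ34, a response difference of -1.64 (*q* = 0.00336 in limma). *Alox5* was not well above background in any *Trp53*-/- channel, so it has no measured difference in either state. Its wild-type levels were 6.71 and 6.51 untreated and 10.60 and 10.14 under PJ34. Over the 62 other p53 targets the median difference was -0.28 without and -1.003 with PJ34, and the response difference was called for 11. Without *Trp53*-/- replicate 1 it was called for 10 of them and without replicate 2 for 12. *Mdm2* had -0.49 and -1.58, and *Mgmt* -1.34 and -3.67, both with a called response difference. *Dglucy* had -3.14 and -4.23, *Phlda3* -2.81 and -3.76, and *Bax* -1.25 and -1.77, with response differences of -0.79, -0.83 and -0.46 that were not called. These 5 genes were picked after their values were seen.

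For *Cdkn2a*, *Cd93* and *Fgfr3*, all higher without p53, values with and without PJ34 lay close together. *Cdkn2a* had 3.35 untreated and 3.55 treated, *Cd93* 2.47 and 2.57, and *Fgfr3* 2.39 and 2.67. Their response differences lay between -0.02 and 0.16 and none was called, which does not show that they were equal. Other higher genes lay further apart, among them *Gfap* with 2.10 and 3.67 and *H19* with 1.73 and 2.80. Their response differences of 1.02 ± 0.38 (*q* = 0.177 in limma) and 0.73 ± 0.33 (*q* = 0.256) were not called. *H2-D1*, lower in both, had -3.003 untreated and -2.74 treated.

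**Figure D4:**
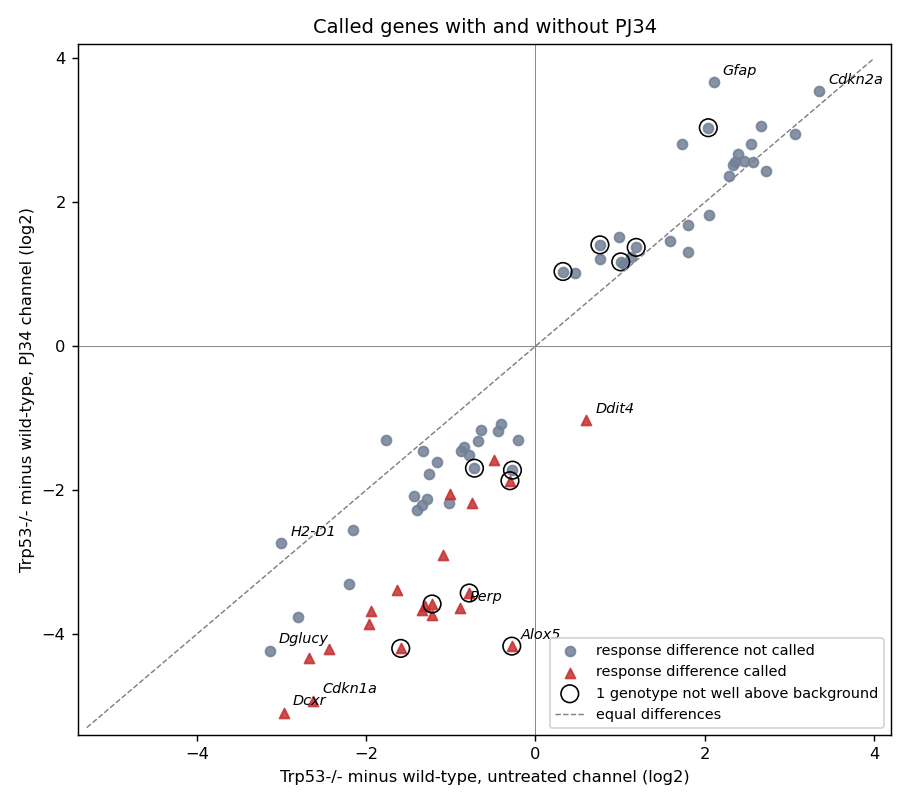
Difference between the genotypes for the 72 called genes named by the rules. The x axis is *Trp53*-/- minus wild-type in the untreated channel and the y axis the same in the PJ34 channel, both in log2, triangles are genes with a called response difference, the dashed line marks equal differences, and open rings mark genes not well above background in either PJ34 sample of 1 genotype, among them *Alox5*, whose position is limited by background. *Ddit4* (0.60 and -1.03) lies far below the line, while *Cdkn2a* lies near it.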

How the data were processed

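The 4 PJ34 channels, 2 per genotype, were analysed here. The members, gene lists and tests were chosen with earlier results of these data known. The authors hybridized each pair of RNAs to a 2-colour Agilent SurePrint G3 Mouse array and scanned it with Feature Extraction 10.7.3.1. The authors deposited, as uncorrected intensity, every spot's mean brightness and the median of the background around it, and beside them the software's processed signal, which served only as an alternative. Flags for spots well above background and for outliers come from the same deposited files. A further table by the authors holds 4 normalized columns that are named by number only, and it was left out. Probe positions are on mm9. Accessions in a RefSeq table (GRCm38.p6) gave symbols to 26309 of 55681 probes (47.2%), and the rest kept the name in the files.

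The Cy5 background was corrected by normexp with an offset of 50 (limma 3.58.1, R 4.3.3), intensities were quantile-normalized between arrays, control and outlier spots (132 to 178 per array) were left out, and a probe's spots were averaged. Of 26916 probes that passed the rule, 26909 had a value on all arrays. A gene was read from its brightest probe, and the 8 p53 targets of the study from the probes it names. limma was fitted with 2 residual degrees of freedom, 5.67 after moderation, and *q* values used Storey's smoother (lambda 0.05 to 0.95). An exact permutation test of 2 against 2 cannot pass the threshold. The response difference was tested on ratios normalized by loess within each array. The precision is limited by the number of arrays, and each array had its own slide and scan, so neither could be used as a block. The fit was tested on simulated data.

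Genes were named by rule: *Trp53*, the genes the study names, the 12 largest differences in each direction among called genes measured on all 4 arrays without overlap, the 5 largest lower limits in each direction, called list members and the sex-linked list. Lists are described by counts and medians. A few genes that the rule or the lists hold are not reported here. Promoter windows are from RefSeq. Alternatives were other background corrections, scalings, filters, probe rules, variance models and adjustments, a separate-channel fit, the replicate number as a block and leaving out each array.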

Additional observations from a re-analysis of the deposited data

Results flagged for a closer look

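The PJ34 response differed between the genotypes, by a test of the difference itself in limma, for 98 of the 20092 genes. Of the genes named here, it was lower in *Trp53*-/- NSPCs, as a log2 difference of the responses, for the p53 targets *Perp* (-2.29), *Cdkn1a* (-2.14), *Mgmt* (-2.08), *Fas* (-1.93), *Gdf15* (-1.83), *Ddit4* (-1.64), *Dcxr* (-1.61), *Bbc3* (-1.51), *Ccng1* (-1.50), *Tnfrsf10b* (-1.46), *Trp53inp1* (-1.45), *Pmaip1* (-1.44), *Zfp365* (-1.39), *Mdm2* (-1.05), *Ptprv* (-1.03) and *Sesn2* (-1.01). Outside the p53 lists it was lower for *Alox5* (-3.05), *1700007K13Rik* (-1.93), *Svop* (-1.86), *Psrc1* (-1.54) and *Pqlc3* (-1.54). *Gdf15*, *Ptprv*, *Alox5*, *1700007K13Rik* and *Pqlc3* were not well above background in any *Trp53*-/- channel, so their values are limited by background and have no order. With 2 arrays per genotype, single samples that lie far from their group could not be tested.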

How the results depend on the processing

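The 72 called genes named by the rules kept their direction under every alternative in which they were tested. The counts moved by more than 1.5 times in these settings and, for the lower genes, with the replicate block described below. An offset of 16 gave 427 higher genes. The 75th percentile scaling gave 416 higher and 811 lower, and the median scaling 1290 and 307, the latter shifting the median of all genes to 0.295. Without a filter on dim probes 129 genes were higher and 251 lower. In that setting more probes entered both the variance moderation and the adjustment, and the probe of each gene was picked again. The parts of these were not separated. Benjamini-Hochberg adjustment gave 23 and 61, and treat against 2-fold 2 and 18. Leaving out 1 array gave 0 to 611 higher and 0 to 1084 lower genes, and 98 to 166 genes with a response difference. Median centring in place of loess gave 40 genes with a response difference. The cause of these shifts was not tested where the setting does not itself show it.

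With the replicate block, 389 genes were higher and 787 lower, and 103 had a response difference. The deviations of same-numbered samples had a correlation of 0.253 over genes, and nothing in the labels pairs them. Of the 90 genes named by the rules, 90 stayed on the same side of the thresholds with the block, 51 with Benjamini-Hochberg adjustment, 36 under treat and 18 without either *Trp53*-/- sample. Calls were lost under the median scaling for *Rchy1*, *Rprm*, *Ddit4*, *Aen*, *Ercc5*, *Rps27l*, *Kdr* and *Zic1*, with the mean of all probes for *Ifi203*, *H19*, *Ercc5*, *Msi1*, *Rbfox3*, *Mbp*, *Kdr* and *Zic1*, without wild-type replicate 1 for *Ddit4*, *Ercc5*, *Elavl3* and 1 other gene, and without wild-type replicate 2 for *Npy1r* and *Rps27l*. The scanner software's processed signal lost 16 calls, among them *Pdlim4*, *H2-D1*, *S100b* and *Gtse1*. The counts of list members under each setting, the list medians under each scaling, the response counts within lists, the marker sums without their brightest gene and the counts at an unadjusted *p* without 1 array were chosen after seeing the data. With the medians set equal, 6 progenitor markers, 3 regional genes and 3 interferon-stimulated genes were higher. Probes not well above background limit a difference to a bound.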

Other observations

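Cell cycle lists had other medians without PJ34. The 33 S phase genes had a median difference between the genotypes of -0.43 in the untreated channel and of 0.14 in the PJ34 channel, and the 34 G2 and M phase genes -0.23 and 0.16. Their median response differences were 0.55 and 0.32, with 0 of either list called by limma. Without the fold limit, the response difference passed *q* below 0.05 for 11 of the 33 S phase genes, all above 0, and for 0 of the 34, against 96 above and 261 below 0 among all genes. For the S phase genes it was 5 without *Trp53*-/- replicate 1, 10 without replicate 2, 1 without wild-type replicate 2 and 0 with median centring in place of loess. For the 20 genes of DNA damage signalling the medians were -0.10 and 0.16, and for all genes tested -0.01 and 0.02.

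Of 362 genes tested with a probe within 10 Mb of *Trp53* on chromosome 11, 8 were called, 2 higher and 6 lower, a share below the 3.89% of all genes. By chromosome, the share called lay, apart from chromosomes Y and M with 8 and 7 genes tested, between 0.96% on chromosome 18 and 5.39% on chromosome 10.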
